A study of Mus musculus with 21 samples.

Results

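p53 and 8 genes that it is known to control were followed across 21 libraries of sorted blood cells from a mouse model of juvenile myelomonocytic leukemia. The genes were chosen by name: Trp53, Mdm2, Cdkn1a, Ccng1, Phlda3, Trp53inp1, Aen, Sesn2 and Zmat3. They are 9 of the 45706 gene identifiers in the count files, each name matched 1 identifier, and all 9 passed the filter on low counts. The RNA came from 3 sorted fractions: LSK cells, which are the lineage-negative, Sca+ cKit+ stem and progenitor cells of the bone marrow (BM); CD11b+ myeloid cells of the BM; and CD11b+ myeloid cells of the spleen. Each fraction held 2 MxCre libraries, 2 Ptpn11D61Y/+ control libraries and 3 libraries of S3 MxCre;Ptpn11D61Y/+ mice, S3 being the terminally ill stage. The study's methods give 3 mice per genotype for the CD11b+ RNA, whereas the labels give 2 MxCre libraries, so that the sources differ on this.

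MxCre mice carry the Cre recombinase under the interferon-inducible Mx1 promoter and no mutant allele. Ptpn11D61Y/+ control mice carry the D61Y allele of Ptpn11, which encodes the phosphatase SHP2, behind a Neo-Stop cassette and have no Cre, so that the allele stays silent. The study states that a single functional Ptpn11 allele is expressed in them and likens this to a heterozygous knock-out. S3 mice carry both the Cre and the D61Y allele, so the mutant SHP2 is switched on wherever Mx1 is induced. According to the study's methods every mouse, control or not, received poly I:C, an interferon inducer; the treatment label of the samples states that none was given, so that the sources differ on this, and the labels give neither the ages nor the time since injection. The S3 libraries are named by mouse number (540, 815 and 768 for LSK; 540, 815 and 640 for both CD11b+ fractions), and the controls only by replicate number.

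p53, the product of Trp53, is a transcription factor that is held at a low level by the ubiquitin ligase MDM2, and its activity is set largely through the protein rather than through the RNA. When DNA is damaged or an oncogene is active, it raises the transcription of genes that stop the cell cycle, repair DNA or kill the cell. Mdm2 is itself one of those genes, which closes a feedback loop, and Cdkn1a encodes p21, which binds cyclin-dependent kinases and stops the cell from entering S phase. In blood-forming tissue p53 and p21 are known for holding stem cells out of cycle.

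The promoters of these genes were searched for a form of the p53 response element, an adjacent pair of p53 half-sites of 10 bases each. Half-sites with bases between them, and sequence outside the promoter windows, were not searched. RefSeq promoter windows on GRCm38.p6 (250 bases before to 50 after each annotated start) were at hand for 7 of the 9 genes, in 9 windows. Both strands were read, and a window counted as holding the element if all 20 bases fitted the consensus with at most 2 mismatches and none in the C and G at the core of each 10-base unit. Cdkn1a and Ccng1 each had an element with 1 mismatch in 1 window. Of all 32851 promoter windows, 0.326% held an element by this rule, and 0.067% held it with at most 1 mismatch. The stretches around both elements are shown because these are the 2 genes with a match; capitals mark the element.
Cdkn1a: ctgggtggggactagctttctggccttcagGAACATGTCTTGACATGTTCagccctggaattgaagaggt
Ccng1: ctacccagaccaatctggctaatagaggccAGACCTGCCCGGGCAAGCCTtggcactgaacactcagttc
The Cdkn1a stretch is chr17:29090898-29090967 on the plus strand, with 31 bases between the element and the annotated start of that window. The other Cdkn1a window, chr17:29093519-29093818, belongs to a start further downstream and did not hold the element. The Ccng1 stretch is chr11:40755442-40755511 on the minus strand, with 175 bases between the element and the start. The windows of Trp53, Mdm2, Phlda3, Aen and Sesn2 did not hold these letters within the mismatches allowed. A match is a description of the letters and was not tested for binding.

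On GRCm38, Trp53 lies at chr11:69580359-69591873, Mdm2 at chr10:117688875-117710758, Cdkn1a at chr17:29090976-29100727, Ccng1 at chr11:40748552-40755311 and Phlda3 at chr1:135766119-135769136. Trp53inp1 lies at chr4:11156431-11174379, Aen at chr7:78895854-78911209, Sesn2 at chr4:132492032-132510501 and Zmat3 at chr3:32334792-32366014. Counts were given per whole gene, over exons. Cdkn1a shares 273 exon bases, 7.68% of its exons, with AC167363.2, which lies on the opposite strand and is not among the counted genes, and the span of Sesn2 holds Gm12981 with no shared exon base.

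The libraries held between 34992610 and 104509425 counts, with a median of 69421661, so that counting error is small beside the spread between libraries. A library's level of a gene is given in CPM, the gene's counts brought to the same library total in every library, after scaling by trimmed means (TMM). The fractions matched their labels in part. The 10 stem and progenitor markers summed to between 1329 and 1924 CPM in LSK and to at most 555 CPM in the CD11b+ libraries. The 10 CD11b+ myeloid markers summed to between 9124 and 102910 CPM in the CD11b+ libraries and to at most 2293 CPM in LSK. The 2 spleen libraries of Ptpn11D61Y/+ controls had the lowest myeloid sums of the CD11b+ libraries, at 9124 and 13185 CPM, against 45902 and 102910 CPM in the spleens of MxCre mice, while their 7 B cell markers summed to 1911 and 2578 CPM against 300.3 and 132 CPM. The 12 erythroid markers, globins among them, summed to between 14877 and 224440 CPM in BM CD11b+ libraries and to between 1185 and 29870 CPM in the spleen, and 2 of the 12 had no count in spleen MxCre replicate 1. The part of these other cells in the results was not tested, and in bulk libraries fewer cells of a type and less RNA per cell cannot be told apart.

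**Figure D1:**
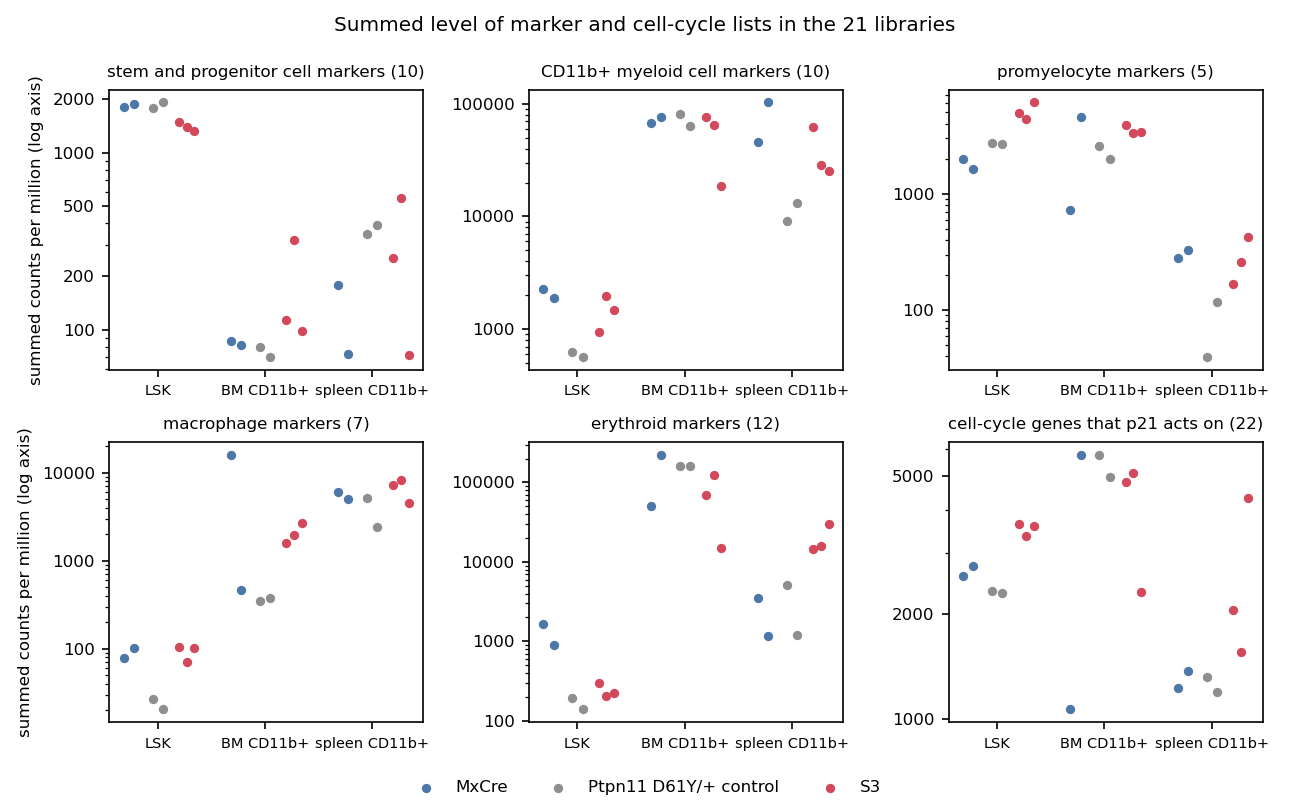
Summed level in CPM (log axis) of 5 cell type marker lists and of the cell-cycle list in each of the 21 libraries, by fraction and colored by genotype; the number of genes is in brackets and each point is a library. The 2 spleen libraries of Ptpn11D61Y/+ controls have the lowest myeloid sums among the CD11b+ libraries, and the 3 S3 spleen libraries have higher erythroid sums than all 4 spleen controls.

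A few libraries stood apart. The libraries of BM CD11b+ MxCre replicate 2, BM CD11b+ S3 540 and spleen CD11b+ S3 540 held counts of both the female-specific Xist (2834, 2780 and 712) and of Y-linked genes (1900, 958 and 4225), while LSK S3 540 held 1 Xist count and 15172 Y-linked counts. The 3 libraries of mouse 540 thus differed in this measure. Spleen CD11b+ Ptpn11D61Y/+ replicate 1 held 4753 Xist counts and no Y-linked count, whereas the LSK and BM libraries with that number held Y-linked counts, so that replicate numbers of controls need not mark an animal. Another 3 libraries, BM CD11b+ MxCre replicate 1, spleen CD11b+ MxCre replicate 1 and BM CD11b+ S3 815, had counts for 14885, 14641 and 14761 genes, against at least 17493 in every other library. Without the 3 libraries that held both, 6 and 5 of the 9 genes were called in spleen and BM against LSK, where 57.1% and 51.8% of all genes were. Without the 3 with the fewest genes it was 7 and 5 of the 9, beside 63.9% and 59.2% of all genes. The second set holds 1 of the 2 MxCre libraries of both BM and spleen and the first 1 of those of the BM, and wherever leaving out a control library leaves 1 in its group, that library is assumed to vary like the libraries of the other groups; the other counts are given beside each result.

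Levels between genes were compared per kilobase of exon. In LSK cells Trp53 was the highest of the 9 at 53.1 ± 5.03 CPM per kb (SD, n = 7 libraries), followed by Ccng1 at 12.96 and Mdm2 at 10.01 CPM per kb. In BM CD11b+ cells Cdkn1a was at 16.0 ± 8.28 CPM per kb, with Mdm2 at 14.2, Sesn2 at 12.97 and Trp53 at 12.6 CPM per kb within that spread, and the order differed between genotypes. Sesn2 was the highest of these 4 in MxCre at 17.7 CPM per kb, Trp53 in Ptpn11D61Y/+ controls at 19.9 CPM per kb and Cdkn1a in S3 at 19.8 ± 12.4 CPM per kb. In spleen CD11b+ cells Cdkn1a was at 35.5 ± 29.3 CPM per kb, with Sesn2 at 25.2, Ccng1 at 18.7 and Trp53 at 17.7 CPM per kb within that spread. Its level there was set by the MxCre libraries, at 75.5 CPM per kb, whereas in Ptpn11D61Y/+ controls it was at 24.6 CPM per kb beside Ccng1 at 24.4, and in S3 at 16.1 CPM per kb it lay below Ccng1, Trp53 and Sesn2 at 20.2, 19.9 and 17.6 CPM per kb. Zmat3, an RNA-binding zinc finger protein, was the lowest in all 3 fractions, at 0.440 CPM per kb in LSK, 0.310 in BM and 0.841 in spleen CD11b+ cells.

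**Figure D2:**
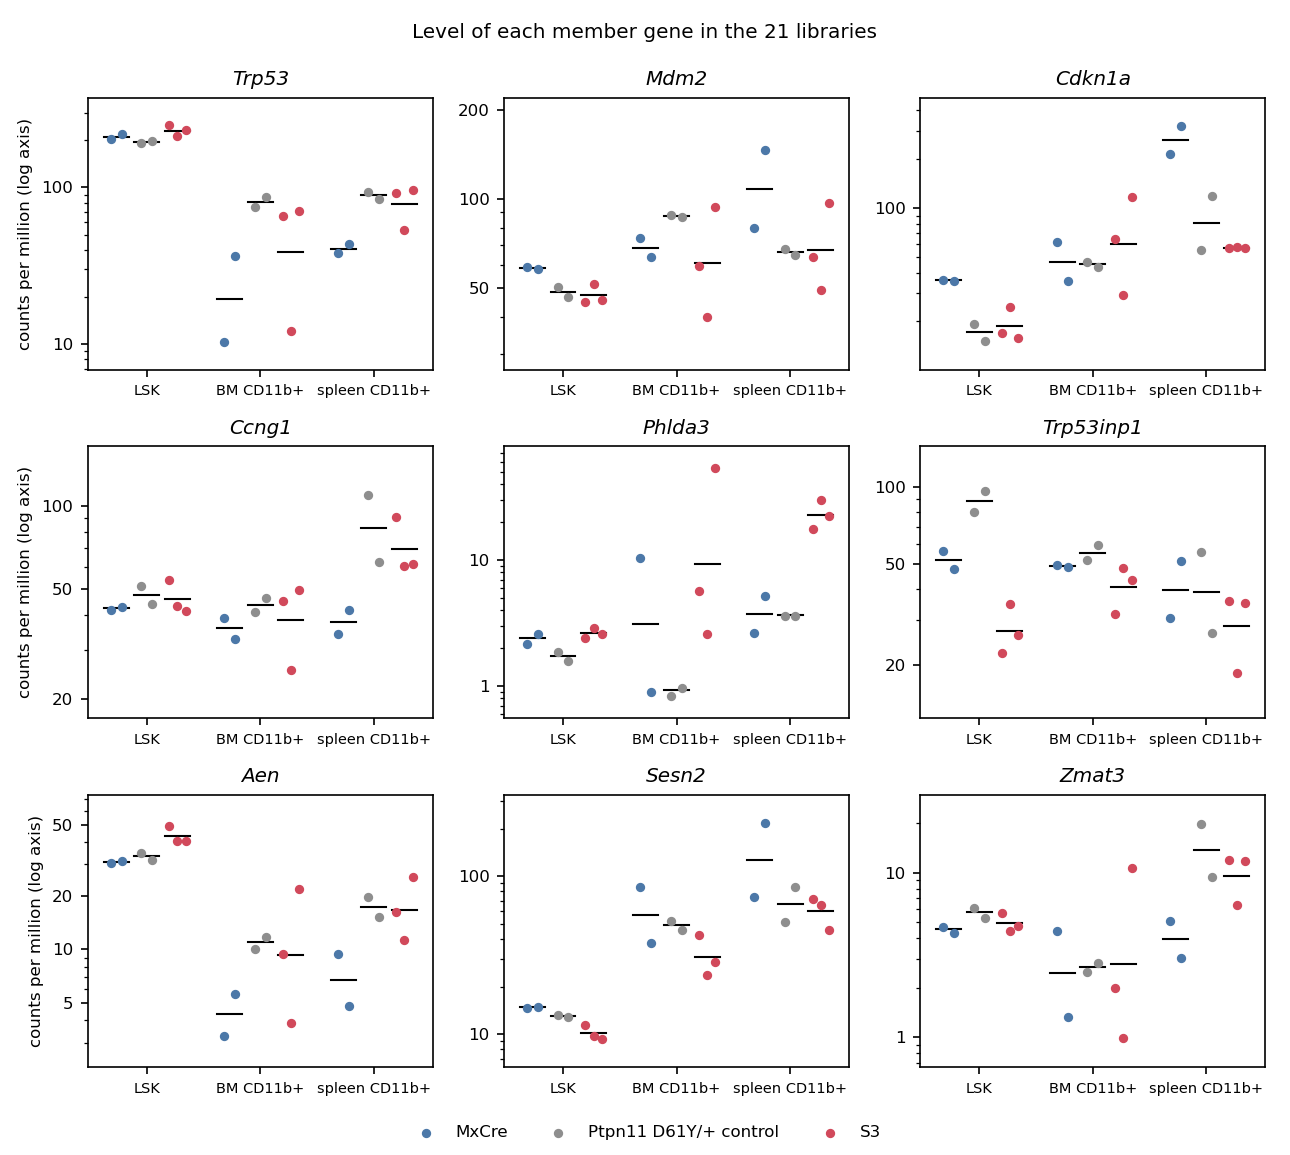
Level of each of the 9 genes in CPM (log axis) in the 21 libraries, by fraction and colored by genotype; each point is a library and the black bar is the mean of the log values of the group. LSK libraries of a group lie close together, and the CD11b+ libraries of a group are often several-fold apart.

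How the genes differ between the stem cell and the myeloid fractions was asked with all 3 genotypes weighted equally. Differences were tested with edgeR (quasi-likelihood) over 19555 genes with adjustment after Benjamini and Hochberg, and a gene with an adjusted p below 0.05 is called. In spleen CD11b+ against LSK, 6 of the 9 genes were called, 4 higher and 2 lower, where 59.9% of all genes were called (28.3% higher, 31.6% lower). In BM CD11b+ against LSK it was 5 of 9, 3 higher and 2 lower, with 58.4% of all genes called (26.8% higher, 31.6% lower). Libraries of the fractions compared did not overlap for 30.5% of all genes in the spleen and for 31.6% in the BM. The share of members called was thus near that of all genes. Their median log2 difference was 0.65 in the spleen, beside -0.14 over all genes tested, and -0.06 in the BM, beside -0.17.

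Trp53 itself was lower in myeloid cells. It lay between 191 and 249.6 CPM in LSK (median 212), between 10.3 and 86.3 CPM in BM CD11b+ (median 66.2) and between 38.3 and 96.6 CPM in spleen CD11b+ cells (median 84.9). Every LSK library was above every CD11b+ library. The log2 difference to LSK was -1.67 in the spleen (SE 0.339, adjusted p = 0.000638) and -2.21 in the BM (SE 0.346, adjusted p = 7.64e-05). The 2 lowest BM libraries, MxCre replicate 1 and S3 815 at 10.3 and 12.2 CPM, are among those with the fewest detected genes.

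Aen, a nuclease that takes part in p53-driven cell death, had the same pattern. Its 7 LSK libraries lay between 30.7 and 49.2 CPM, and its BM and spleen libraries between 3.28 and 21.7 CPM and between 4.84 and 25.6 CPM. The ranges did not overlap with LSK, and the log2 differences were -1.46 in spleen (SE 0.32, adjusted p = 0.00115) and -2.10 in BM CD11b+ cells (SE 0.328, adjusted p = 7.49e-05). Leaving out any single library ended none of the calls of Trp53, Aen, Cdkn1a and Sesn2 against LSK. With the Ptpn11D61Y/+ libraries alone, neither Trp53 (log2 -1.12 and -1.27; adjusted p = 0.205 and 0.155) nor Aen (log2 -0.94 and -1.61; adjusted p = 0.257 and 0.0657) was called by edgeR in spleen or BM.

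Cdkn1a and Sesn2 were higher in myeloid cells than in LSK. Cdkn1a ranged from 15.1 to 36.2 CPM in LSK, from 29.2 to 117 CPM in BM CD11b+ and from 55.5 to 321 CPM in spleen CD11b+ cells. Spleen and LSK did not overlap, whereas BM and LSK did. The log2 difference was 2.27 in the spleen (SE 0.283, adjusted p = 8.44e-06) and 1.23 in the BM (SE 0.273, adjusted p = 0.00136). The BM value differed with genotype. In MxCre, BM held 61.5 and 35.5 CPM and LSK 36.2 and 35.7 CPM, which overlap. In Ptpn11D61Y/+ controls BM held 46.6 and 43.2 CPM and LSK 19.3 and 15.1 CPM. In S3, BM held between 29.2 and 117 CPM and LSK between 15.7 and 24.7 CPM. Sesn2, a stress-induced inhibitor of mTORC1, ranged from 9.28 to 14.8 CPM in LSK, from 23.8 to 84.9 CPM in the BM and from 45.9 to 218 CPM in the spleen, with no overlap between LSK and either. Its log2 difference was 2.77 in the spleen (SE 0.27, adjusted p = 8.22e-07) and 1.87 in the BM (SE 0.26, adjusted p = 2.68e-05). With the Ptpn11D61Y/+ libraries alone, the BM calls of Cdkn1a and Sesn2 did not both hold, where 19.7% of all genes were called.

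Mdm2 was called slightly higher in both myeloid fractions, with log2 differences of 0.65 in the spleen (adjusted p = 0.0138) and 0.51 in the BM (adjusted p = 0.0471), but scaling by library size alone turned both to -0.10 and -0.31. With same-numbered libraries of a genotype as a replicate block the BM call was lost (log2 0.37, adjusted p = 0.0756). It was also lost in 13 of 14 fits that left out a library, and the spleen call without LSK MxCre replicate 2 (adjusted p = 0.0517) or spleen MxCre replicate 2 (adjusted p = 0.0774). Under that scaling the all-gene median went from -0.14 to -0.90 in spleen against LSK and from -0.17 to -0.99 in BM against LSK, and the calls of Trp53, Aen and Sesn2 in both comparisons and of Cdkn1a in the spleen held under it, while Cdkn1a in the BM did not (log2 0.42, adjusted p = 0.248). Phlda3, whose product competes with the kinase Akt for membrane lipids, was called higher in the spleen (log2 1.64, adjusted p = 0.0231) but not in the MxCre (log2 0.72, adjusted p = 0.59) or Ptpn11D61Y/+ libraries alone (log2 1.06, adjusted p = 0.488), and the call was lost without either LSK MxCre, either LSK Ptpn11D61Y/+ or the second spleen MxCre library (adjusted p between 0.0571 and 0.0688). Trp53inp1, which promotes p53 phosphorylation and autophagy, gave log2 -0.45 and -0.06, Zmat3 0.74 and -0.62, and Ccng1 0.44 and -0.19, in spleen and BM respectively, and none of them was called; with the replicate block Zmat3 was called lower in the BM (log2 -1.10, adjusted p = 0.0335).

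**Figure D3:**
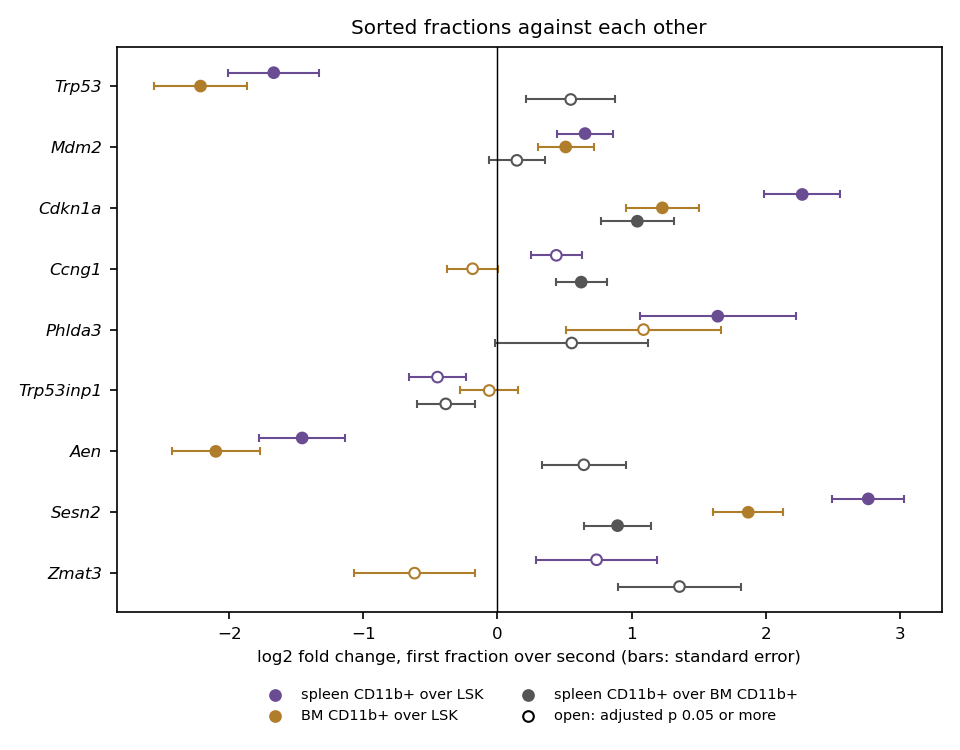
Log2 fold change of each gene between fractions, with its standard error as the bar, from the fit over all 21 libraries with the 3 genotypes weighted equally; filled points have an adjusted p under 0.05. Trp53 and Aen lie left of 0 in both comparisons with LSK, and Cdkn1a and Sesn2 lie right of 0 in all 3 comparisons.

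Between the myeloid fractions, Cdkn1a, Ccng1 and Sesn2 were called higher in spleen than in BM, 3 of 9 genes where 14.0% of all genes were called and 6.56% were called higher. Their log2 differences were 1.04 (SE 0.272, adjusted p = 0.0189), 0.62 (SE 0.19, adjusted p = 0.0375) and 0.90 (SE 0.253, adjusted p = 0.0272). The libraries overlapped for all 3. With the replicate block Sesn2 was not called (log2 0.87, adjusted p = 0.0636) and Zmat3 was (log2 1.61, adjusted p = 0.0254). The spleen-to-BM difference of Cdkn1a was 2.47 in the MxCre libraries, 0.96 in the Ptpn11D61Y/+ libraries and -0.30 in the S3 libraries. None of the 3 was called without the 3 libraries with both Xist and Y-linked counts (adjusted p = 0.137, 0.174 and 0.106), nor when only spleen and BM libraries were fitted, and 5 of the 9 were called without the 3 libraries with the fewest genes, where 20.7% of all genes were. All 3 calls were also lost without BM MxCre replicate 2 and without either BM Ptpn11D61Y/+ library (adjusted p between 0.0592 and 0.119), and the other spleen libraries whose absence ended at least 1 of them were both MxCre, both Ptpn11D61Y/+ and S3 540.

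Whether the leukemic state changed the p53 program in the spleen was asked with S3 against MxCre libraries. Cdkn1a fell, and it was the only one of the 9 genes called, where 4.19% of all genes were called and 2.67% were called lower. MxCre libraries held 216 and 321 CPM of Cdkn1a, Ptpn11D61Y/+ control libraries 55.5 and 119 CPM, and S3 libraries 56.9, 57.8 and 56.4 CPM. The S3 libraries were alike and lay below both MxCre libraries, as for 12.9% of all genes, but inside the range of the Ptpn11D61Y/+ controls. Against MxCre the log2 difference was -2.23 (SE 0.449, adjusted p = 0.0143), which is a 95% interval from -3.21 to -1.25. With both control genotypes it was -1.42 (adjusted p = 0.119), against Ptpn11D61Y/+ controls alone -0.62 (adjusted p = 0.806), and with the 7 spleen libraries fitted alone -2.25 (adjusted p = 0.0884), a fit in which 0% of all genes were called, as in the same fit for the BM. It was also lost without MxCre replicate 2 (log2 -1.91, adjusted p = 0.059) and without S3 540 (log2 -2.23, adjusted p = 0.0524). Without the libraries that held both Xist and Y-linked counts it was still the only call (4.77% of all genes called), and without the 3 with the fewest genes, with 1 MxCre spleen library left, 3 of the 9 were called (7.60% of all genes). Scaling by library size only (log2 -1.77, adjusted p = 0.0558) and a fit of only the groups compared (log2 -2.30, adjusted p = 0.109) also ended the call. Of the 10 CD11b+ myeloid markers 1 was called, Csf3r, the receptor for the neutrophil growth factor G-CSF, which was lower than in MxCre (log2 -3.49, adjusted p = 0.0137). It averaged 4406 CPM in MxCre, 346.2 CPM in Ptpn11D61Y/+ controls and 392.6 CPM in S3. Its call was lost with both control genotypes, where 0% of all genes were called. Of the 10, 2 had a positive value, and the median was -0.49. Itgam, which encodes CD11b, averaged 496 CPM in MxCre, 206.5 CPM in Ptpn11D61Y/+ controls and 850.4 CPM in S3. Its S3 libraries ranged from 184.7 to 1665 CPM, and its MxCre libraries from 292.5 to 699.6 CPM. The erythroid sum was 14674, 15998 and 29870 CPM in S3 spleen libraries against at most 5200 CPM in controls; their part in the Cdkn1a result was not tested.

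Phlda3 was the gene whose S3 spleen libraries stood apart from every control. It was at 17.5, 29.9 and 22.2 CPM in S3, at 2.64 and 5.21 CPM in MxCre and at 3.61 and 3.60 CPM in Ptpn11D61Y/+ controls. No S3 library overlapped with a control, which held for 5.67% of all genes in either direction and for 3.41% in the higher direction. The log2 difference from MxCre was 2.56 (SE 1.05, adjusted p = 0.149), so that it did not pass the edgeR test; DESeq2, which called 17.6% of all genes in this comparison, called it (log2 2.55, adjusted p = 0.0399), and the 7 spleen libraries alone gave 2.55 (SE 0.517, adjusted p = 0.0959). Its standard error in the fit over all 21 libraries included BM CD11b+ cells, where its libraries of a group were up to 20.6-fold apart.

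Sesn2, Mdm2 and Trp53inp1 had negative values in the S3 spleen without being called. Sesn2 held 74.1 and 218 CPM in MxCre, 51.6 and 85.3 CPM in Ptpn11D61Y/+ controls and 71.7, 65.8 and 45.9 CPM in S3 libraries (log2 -1.26, adjusted p = 0.0855). S3 lay below both MxCre libraries, as for 12.9% of all genes, and overlapped with the other controls. DESeq2 called it (adjusted p = 0.0236). The value rested on MxCre replicate 2, the higher one, without which it was -0.26. With that library as the single MxCre spleen library it was -1.83, and the calls made then, without MxCre replicate 1 (adjusted p = 0.0356) or without the 3 libraries with the fewest genes (adjusted p = 0.00496), compare S3 with 1 library. Mdm2 gave -0.69 (adjusted p = 0.22), and Trp53inp1 -0.46 (adjusted p = 0.429).

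Ccng1, Aen, Trp53 and Zmat3 had positive values without being called by edgeR. Ccng1, the cyclin G1 gene whose product brings a phosphatase to MDM2, held 34.4 and 41.9 CPM in MxCre, 109 and 62.4 CPM in Ptpn11D61Y/+ controls and 91.0, 60.3 and 61.6 CPM in S3 libraries. S3 and Ptpn11D61Y/+ libraries both lay above MxCre, as for 20.2% and 34.5% of all genes respectively, and S3 overlapped with Ptpn11D61Y/+. The log2 difference of S3 from MxCre was 0.90 (edgeR adjusted p = 0.11, DESeq2 adjusted p = 0.0369). Trp53 held 38.3 and 43.3 CPM in MxCre, 93.9 and 84.9 CPM in Ptpn11D61Y/+ controls and 91.9, 53.3 and 96.6 CPM in S3 (log2 0.98, adjusted p = 0.284). Aen gave 1.32 (adjusted p = 0.154) and Zmat3 1.30 (adjusted p = 0.302). The median over the 9 genes was 0.90, beside 0.32 over all genes.

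**Figure D4:**
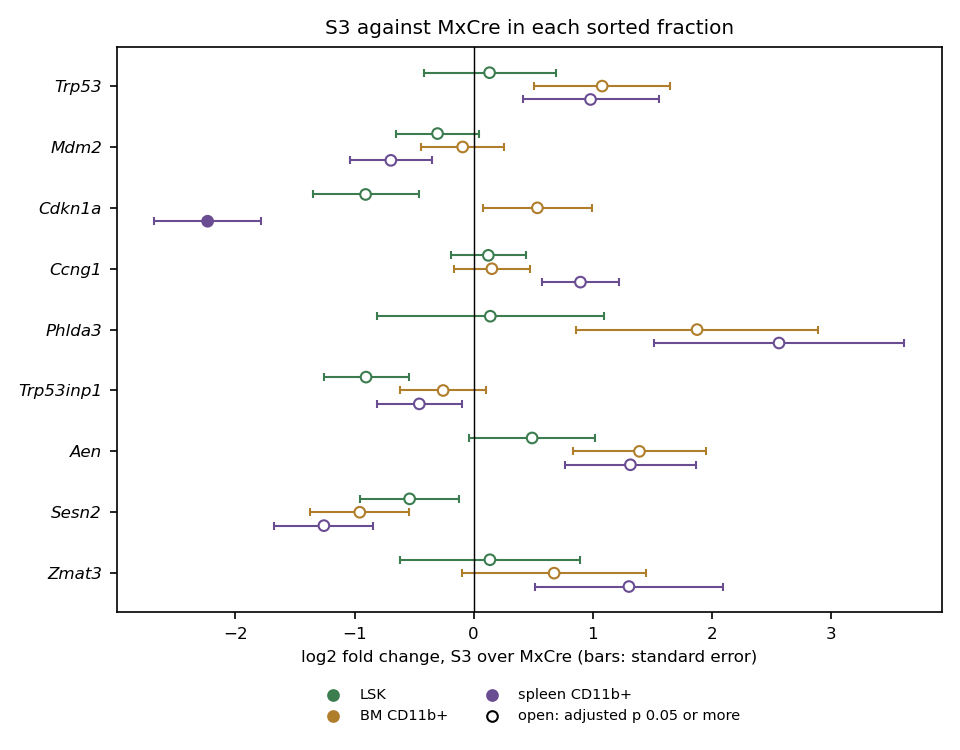
Log2 fold change of S3 over MxCre for each gene in the 3 fractions, with its standard error as the bar, from the fit over all 21 libraries; filled points have an adjusted p under 0.05. Cdkn1a in spleen CD11b+ cells, at -2.23, is the only filled point.

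In BM CD11b+ cells none of the 9 genes was called in S3 against MxCre, and 0% of all genes were. Unadjusted p was under 0.05 for 2 of the 9, Aen (log2 1.39) and Sesn2 (log2 -0.96), where 15.5% of all genes had such a p; DESeq2 called 965 genes and none of the members. Cdkn1a held 61.5 and 35.5 CPM in MxCre, 46.6 and 43.2 CPM in Ptpn11D61Y/+ controls and 64.7, 29.2 and 117 CPM in S3 libraries, which surround all 4 controls (log2 0.53, 95% interval -0.46 to 1.53). Phlda3 was at 5.73, 2.58 and 53.3 CPM in S3, at 10.3 and 0.901 CPM in MxCre and at 0.833 and 0.971 CPM in Ptpn11D61Y/+ controls. Its log2 difference of 1.88 (adjusted p = 0.377) rested on S3 640, without which it was -0.43. Trp53inp1, at 31.7, 48.3 and 43.4 CPM in S3, lay under all 4 controls (48.8 to 59.1 CPM), as 1.7% of all genes did, by a narrow margin (log2 -0.26, adjusted p = 0.751). Trp53 gave 1.08 (adjusted p = 0.37), Mdm2 -0.09 (adjusted p = 0.927), Ccng1 0.15 (adjusted p = 0.843) and Zmat3 0.68 (adjusted p = 0.689). S3 640 also set the sign for Cdkn1a (-0.05 without it), Ccng1 (-0.03) and Zmat3 (-0.94). S3 640 also had the lowest CD11b+ myeloid sum of the BM libraries, 18571 CPM, where the others had between 63180 and 81118 CPM.

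In LSK cells the libraries of a group were much closer to each other. The biological coefficient of variation, which is the spread between libraries of a group beyond counting, was 0.22 when the 7 LSK libraries were fitted alone, 0.699 for BM and 0.615 for spleen CD11b+ cells, and 0.555 over all 21. With the spread shared over all libraries, none of the 9 genes was called in S3 against MxCre LSK cells and 0.0307% of all genes were, with an unadjusted p under 0.05 for Trp53inp1 alone and for 3.97% of all genes; DESeq2 called none of the 9 either and 128 genes in all. Fitted on the 7 LSK libraries alone, a choice made after seeing this difference in spread, 5 of the 9 were called against MxCre, 1 higher and 4 lower, where 31.3% of all genes were called (16.3% higher, 15.0% lower). Against both control genotypes together 3 of 9 were called, 1 higher and 2 lower, where 41.6% of all genes were (22.4% higher, 19.2% lower). Against Ptpn11D61Y/+ controls alone it was 4 of 9, with 37.1% of all genes called, and between the 2 control genotypes none, with 1.77% called. All LSK control libraries held Y-linked counts (12794 to 21885) and at most 17 Xist counts, as a library of males would. LSK S3 815 and 768 held 39460 and 88850 Xist counts and no Y-linked count. Sex thus differed in part between S3 and control LSK libraries, and its part in the LSK values was not tested. Against MxCre every one of the 5 calls was lost when either MxCre library was left out, the fit then resting on 1 library, while the 3 calls against both controls held without any single library.

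Trp53inp1 was lower in S3 LSK cells than in all controls. It held 56.3 and 47.5 CPM in MxCre, 80.2 and 96.7 CPM in Ptpn11D61Y/+ controls and 22.4, 34.7 and 26.2 CPM in S3 libraries. No S3 library overlapped with a control, as for 18.7% of all genes in this direction. The Ptpn11D61Y/+ libraries were above MxCre, as for 28.3% of all genes. In the LSK fit the log2 difference was -0.91 against MxCre (SE 0.197, adjusted p = 0.0169) and -1.30 against both controls (SE 0.173, adjusted p = 0.00246).

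Aen was higher and Sesn2 lower than in all controls, both by less. Aen held 30.7 and 31.3 CPM in MxCre, 34.8 and 31.9 CPM in Ptpn11D61Y/+ controls and 49.2, 40.8 and 40.9 CPM in S3, with a log2 difference of 0.43 against both controls (SE 0.0859, adjusted p = 0.0067). Sesn2 held 14.6 and 14.8 CPM in MxCre, 13.3 and 12.7 CPM in Ptpn11D61Y/+ controls and 11.4, 9.72 and 9.28 CPM in S3, with a log2 difference of -0.46 (SE 0.0993, adjusted p = 0.00906). S3 libraries were separate from all 4 controls in both genes, as they were for 41.1% of all genes in LSK cells, 22.4% being higher in S3.

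Cdkn1a and Mdm2 were called against MxCre but not against the other control. In the same edgeR fit on LSK libraries neither was called between the 2 control genotypes (adjusted p = 0.0796 and 0.197). Cdkn1a held 36.2 and 35.7 CPM in MxCre, 19.3 and 15.1 CPM in Ptpn11D61Y/+ controls and 17.1, 24.7 and 15.7 CPM in S3 LSK cells. Both S3 and Ptpn11D61Y/+ libraries lay under MxCre, as for 28.9% and 29.4% of all genes respectively, and overlapped with each other. The log2 difference was -0.91 against MxCre (SE 0.21, adjusted p = 0.0195) and 0.14 against Ptpn11D61Y/+ controls, with a 95% interval from -0.46 to 0.73. Mdm2 gave -0.31 against MxCre (SE 0.086, adjusted p = 0.0309), with 59.1 and 57.8 CPM in MxCre, 50.5 and 46.5 CPM in Ptpn11D61Y/+ controls and 44.9, 51.5 and 45.7 CPM in S3. Against Ptpn11D61Y/+ controls Mdm2 gave -0.05, with a 95% interval from -0.29 to 0.19. Trp53 itself held 203 and 218 CPM in MxCre, 191 and 197 CPM in Ptpn11D61Y/+ controls and 249.6, 212 and 231 CPM in S3 LSK libraries (log2 0.13 against MxCre, adjusted p = 0.276). Ccng1, Phlda3 and Zmat3 ranged over 41.7 to 53.6, 1.57 to 2.88 and 4.31 to 6.12 CPM in LSK and were not called against MxCre, while Phlda3 was called higher against Ptpn11D61Y/+ controls (log2 0.59, adjusted p = 0.047).

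**Figure D5:**
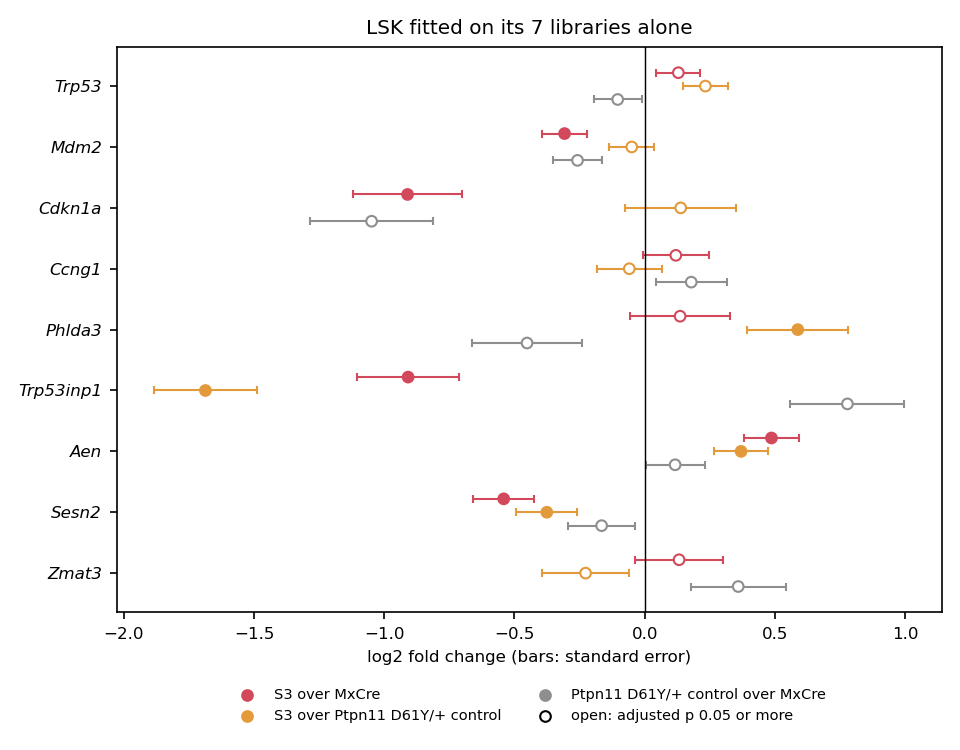
Log2 fold change of each gene in LSK cells from a fit on the 7 LSK libraries alone, with its standard error as the bar, for S3 over MxCre, S3 over Ptpn11D61Y/+ control and Ptpn11D61Y/+ control over MxCre; filled points have an adjusted p under 0.05. Trp53inp1, Aen and Sesn2 have filled points against both controls, whereas Cdkn1a and Mdm2 have one against MxCre only.

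Marker genes also differed with genotype in LSK cells. The fit on LSK libraries alone called 16.3% of all genes higher in S3 than in MxCre and 15.0% lower. Fitted alone, all 5 promyelocyte markers were higher in S3 than in MxCre LSK cells, Mpo by log2 1.53 (adjusted p = 0.00184), and their sum was 4923, 4371 and 6102 CPM in S3 against 2006 and 1629 CPM in MxCre. The stem cell genes Meis1 (log2 -0.81, adjusted p = 0.00295) and Hoxa9 (log2 -0.89, adjusted p = 0.00242) were lower, with 5 of the 10 stem and progenitor markers called lower and 1 higher. Of the 12 erythroid markers 7 were lower and 1 was higher, Tfrc, the transferrin receptor gene (log2 0.99, adjusted p = 0.00859), which was named after its values were seen. The globin gene Hbb-bs was lower in S3 than in MxCre also in the fit over all libraries (log2 -5.13), with 508 CPM in MxCre, 13.3 CPM in Ptpn11D61Y/+ controls and 14.5 CPM in S3. Of the CD11b+ myeloid markers, S100a9 averaged 725 CPM in MxCre, 85.2 CPM in Ptpn11D61Y/+ controls and 361 CPM in S3. The 10 myeloid markers summed to 2293 and 1908 CPM in MxCre, 630.3 and 567 CPM in Ptpn11D61Y/+ controls and 941, 1972 and 1465 CPM in S3. Macrophage markers summed to 77.7 and 101 CPM in MxCre, 26.9 and 20.6 CPM in Ptpn11D61Y/+ controls and 70.6 to 106 CPM in S3. The part of these shifts in the member genes was not tested.

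The 2 control genotypes were compared with each other because the choice of control changed the Cdkn1a result. None of the 9 genes was called between them in any fraction in the fit over all libraries, where 0.0614% of all genes were called in LSK, 0% in the BM and 5.11% in the spleen. In the spleen Cdkn1a was at log2 -1.62 in Ptpn11D61Y/+ controls against MxCre (SE 0.506, adjusted p = 0.0714) and Ccng1 at 1.17 (SE 0.351, adjusted p = 0.0624), and DESeq2 called 2 of the 9 and 17.4% of all genes. The 4 control libraries of a fraction were also fitted by edgeR with the replicate number as a block. Cdkn1a was then called lower in LSK (log2 -1.06, adjusted p = 0.0126) and in the spleen (log2 -1.68, adjusted p = 0.00443), and Zmat3 was called higher in the spleen (log2 1.81, adjusted p = 0.0314), where 9.35% and 13.0% of all genes were called. This block joins mice of different genotypes, which share only a number and cannot be 1 animal. Deviations of these pairs correlated at -0.0406 in LSK and -0.00185 in the spleen. No conclusion is drawn from the calls made with it. For S3 against MxCre in the spleen, the fit over all libraries gave Cdkn1a at -2.23 and Ccng1 at 0.90. Both comparisons share the MxCre libraries, so that they are not independent.

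Whether the S3 effect differed between fractions was tested by its difference of differences. None of the 9 was called, and 0.00511% of all genes were in spleen against LSK and 0% in the other pairs. The largest was Cdkn1a in spleen minus BM, at log2 -2.77 (SE 0.651, unadjusted p = 0.000596, adjusted p = 0.231); DESeq2 (log2 -2.70, adjusted p = 0.00726; 2.73% of all genes called) and the edgeR fit without the 3 libraries with the fewest genes (log2 -3.85, adjusted p = 0.024; 1.13% of all genes called) called it, the latter with 1 MxCre library left in each of the 2 fractions.

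The genes around p53 were read from lists, against the 4.19% of all genes called in the S3 spleen (1.51% higher, 2.67% lower). The 19 regulators of p53 held 1 called gene in the S3 spleen against MxCre, the p53 ubiquitin ligase gene Rchy1, which fell by 1.24 on the log2 scale (adjusted p = 0.0417). Of the 13 apoptosis targets, Bbc3, which encodes PUMA, was called lower (log2 -1.86, adjusted p = 0.0299), from a mean of 155 CPM in MxCre to 42.8 CPM in S3, with 54.9 CPM in Ptpn11D61Y/+ controls. Of the 24 arrest, repair and metabolism targets, 2 were lower, Gadd45a (log2 -3.35, adjusted p = 0.0108) and Sfn (log2 -1.36, adjusted p = 0.0254), and 1 was higher, Gls2, which averaged at most 0.78 CPM in any spleen group and was named after its values were seen. Gadd45a averaged 827 CPM in MxCre, 81.1 CPM in S3 and 41.1 CPM in Ptpn11D61Y/+ controls. Among 8 CDK inhibitors and pocket proteins, Cdkn1b, which encodes p27, was lower (log2 -1.25, adjusted p = 0.0171), with 221 CPM in MxCre, 92.97 CPM in S3 and 84.2 CPM in Ptpn11D61Y/+ controls. As for Cdkn1a, the S3 means of these genes were nearer to those of the Ptpn11D61Y/+ controls than to those of MxCre. The calls of Rchy1, Bbc3, Gadd45a, Sfn, Gls2 and Cdkn1b were all lost with both control genotypes. They were also lost with only the groups compared and with the 7 spleen libraries alone. Each of these 3 fits called 0% of all genes.

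Cyclins, their kinases and other cell-cycle genes downstream of p21 had mostly positive values in S3. In the spleen 2 of 22 were called, both higher, where 1.51% of all genes were called higher, and both D-type cyclins: Ccnd1 (log2 2.28, adjusted p = 0.0278) and Ccnd2 (log2 2.43, adjusted p = 0.0319). Both calls were lost with both control genotypes, with only the groups compared and with the 7 spleen libraries alone. Each of those fits called 0% of all genes. All 22 had a positive value, with a median of 1.15 beside 0.32 over all genes. Their sum was 2062, 1561 and 4344 CPM in S3 540, 815 and 640 against 1195 to 1377 CPM in the 4 controls, and S3 640 also had the highest erythroid sum. All 12 erythroid markers had a positive value in the same comparison (3 called, median 3.65), and their part in the cell-cycle values was not tested. Ccnd1 averaged 22.6 CPM in MxCre, 185 CPM in Ptpn11D61Y/+ controls and 109.8 CPM in S3, and Ccnd2 28.0, 77.2 and 151 CPM. In the fit on LSK libraries alone, 15 of 22 were called against MxCre and 20 of 22 against both controls, all of them higher, where 16.3% and 22.4% of all genes were called higher. Against both controls Ccnd1 (log2 1.38, adjusted p = 0.000433), the mitotic cyclin gene Ccnb1 (log2 0.90, adjusted p = 0.000718) and the mitotic kinase gene Plk1 (log2 0.84, adjusted p = 0.000454) were among them. The edgeR fit over all libraries called 0.00511% of all genes higher in S3 than in MxCre LSK cells. Promyelocyte markers were also higher, and Meis1 and Hoxa9 lower, in S3 LSK cells. Their part in these values was not tested. In BM CD11b+ cells none of the 22 was called, with a median of 0.28 beside 0.18.

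In the same LSK fit other p53 targets were called in both directions, where 22.4% of all genes were called higher and 19.2% lower. Of 13 apoptosis targets 5 were higher against both controls, among them Bax (log2 0.49, adjusted p = 0.0012) and Bid (log2 0.73, adjusted p = 0.000882), and 1 was lower. Of 24 arrest, repair and metabolism targets 6 were higher and 8 lower. The antiproliferative gene Btg2 was lower (log2 -1.81, adjusted p = 0.0138), as were the DNA damage binding gene Ddb2 (log2 -0.64, adjusted p = 0.00141) and Sesn3, a relative of Sesn2 (log2 -0.79, adjusted p = 0.0012). Of the 19 regulators 6 were higher, the ubiquitin ligase gene Cop1 among them (log2 0.40, adjusted p = 0.00434), and 2 lower. The coactivator gene Crebbp, which was lower, averaged 49.8 CPM in S3 beside 49.3 CPM in Ptpn11D61Y/+ controls, and only MxCre, at 80.6 CPM, stood apart.

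The same lists were read between fractions. In spleen CD11b+ against LSK, where 28.3% of all genes were higher and 31.6% lower, 6 of 19 regulators were higher and 6 lower; the damage kinase genes Atm (log2 -3.18, adjusted p = 0.000128) and Atr (log2 -2.08) and the checkpoint kinase gene Chek1 (log2 -2.51) were lower. Among apoptosis targets Pmaip1, which encodes NOXA, was higher by log2 6.07, Bbc3 by 2.56 and Bax by 1.89, and 6 of 13 were higher against 3 lower. Of 24 arrest, repair and metabolism targets 8 were higher, Gadd45a by log2 4.53, and 10 were lower. Of 8 CDK inhibitors and pocket proteins 4 were higher, Cdkn2d by 2.45 and Cdkn1b by 1.06, and 3 lower, among them the pocket protein genes Rbl1 (log2 -1.68) and Rbl2 (log2 -1.24). Of the 22 cell-cycle genes 13 were lower and 2 higher in spleen against LSK, and 16 were lower and 1 higher, Ccnd1, in spleen against BM, where 7.40% of all genes were lower and 6.56% higher. In BM against LSK 9 were higher and 4 lower, where 26.8% of all genes were higher and 31.6% lower. All 12 erythroid markers (median log2 -4.27) and all 5 promyelocyte markers (median log2 -3.79) were also called lower in spleen against BM, and their part in the cell-cycle values was not tested.

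Which genes followed p53 and its main targets was read from Pearson's correlation of log2 CPM over the 21 libraries, among 8773 genes. The values describe fraction and depth as much as any relation, since the libraries fall into 3 fractions. Trp53 was nearest to Ccdc127 (0.984), Mta1 (0.983) and Noc2l (0.98), Mdm2 to Pde1b (0.929), Pxn (0.927) and Prr14 (0.921), and Cdkn1a to Bbc3 (0.961), Rela (0.941) and Tppp3 (0.935). Of these, Bbc3 is the only one on the lists of p53 targets.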

How the data were processed

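RNA of sorted cells was sequenced as stranded, paired-end mRNA libraries. According to the submitters' processing notes and the methods, the authors used bcl2fastq 2.20.0.422, FastQC 0.11.9, Trim Galore 0.6.5 and STAR 2.5.3a on GRCm38; the counting program, annotation and strand setting are not given in the sources used here. The deposited values are raw counts per Ensembl gene, of which 45143 of 45706 identifiers matched a gene name. Groups came from the sample labels.

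Counts were fitted with edgeR 4.0.16 in R 4.3.3 (TMM factors, filterByExpr with a minimum count of 10 and a minimum total of 15, quasi-likelihood test, 9 groups, 12 residual degrees of freedom, Benjamini-Hochberg adjustment over 19555 genes, threshold 0.05). DESeq2 1.42.0 and other scalings, filters, controls and left-out libraries were alternatives. The method was tested on simulated data, but the outcome is not given here and no result rests on it. Nothing in the labels shows that same-group libraries were more than separate samples of that group, so p-values measure the spread between them.

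By their labels S3 libraries with the same mouse number come from the same mouse. Deviations from the group means correlated at 0.108, 0.407 and 0.333 between spleen and BM of mice 540, 815 and 640, between -0.096 and 0.0865 for S3 pairs with LSK, and between -0.173 and 0.0585 for same-numbered controls, whose numbers were not shown to mark an animal. Values with the number as a block stand beside the calls between fractions that they changed.

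The members and lists were chosen with earlier results of these data known. From each other list the text names at most 5 called genes, taken by size of the fold change among those averaging 3 log2 CPM or more, and Gls2, Itgam and Tfrc outside this rule, and for Trp53, Mdm2 and Cdkn1a the 3 genes most alike in pattern. Fits on 1 fraction alone and without libraries that stood apart were added after seeing the data. One called marker gene is not reported here by name.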

Additional observations from a re-analysis of the deposited data

How the results depend on the processing

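Counts below are of the 9 genes called, with the reported value first and, in brackets after an alternative, the share of all genes it called. For S3 against MxCre in LSK (0) they were 5 with only the groups compared in the fit (26.8%) and 5 with the 7 LSK libraries alone (31.3%). In the spleen (1) they were 0 with both control genotypes (0%), with Ptpn11D61Y/+ as control (0.00511%), with library size only (4.69%), with only the groups compared (0%) and with the 7 spleen libraries alone (0%), 4 by DESeq2 (17.6%), 3 without the 3 libraries with the fewest genes (7.60%) and 0 to 2 with single libraries left out. Spleen against LSK (6) gave 2 in Ptpn11D61Y/+ libraries alone (18.1%). BM against LSK (5) gave 3 in MxCre (36.9%) and 1 in Ptpn11D61Y/+ libraries alone (19.7%). Spleen against BM (3) gave 1 in MxCre (0.915%), 0 in Ptpn11D61Y/+ (3.69%) and 0 in S3 libraries alone (0.0563%), 0 with only the groups compared (4.92%), 0 without the libraries with Xist and Y-linked counts (5.36%), 5 without those with the fewest genes (20.7%) and 0 to 6 with single libraries left out. Ptpn11D61Y/+ against MxCre (0 in each fraction) gave 2 in LSK with only the groups compared (14.2%), 2 in BM without the Xist and Y-linked libraries (11.7%, 1 MxCre library left) and 0 to 2 with single libraries left out, and in the spleen 1 with RLE factors (5.69%), 1 with library size only (8.73%), 2 by DESeq2 (17.4%) and 3 without the libraries with the fewest genes (10.1%, 1 MxCre library left). The difference in spleen minus BM (0) gave 1 by DESeq2 (2.73%) and 1 without the libraries with the fewest genes (1.13%). In the fits on LSK alone, single libraries left out gave 0 to 5 against MxCre and 3 to 6 against both controls. The causes were not tested.

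Values that changed sign, on the log2 scale and none past the threshold, included these. The list is not complete for Ptpn11D61Y/+ against MxCre with 1 MxCre library left out. There the levels of BM Cdkn1a, Sesn2 and Zmat3 and of spleen Trp53inp1 (without MxCre replicate 1) also changed order. So did those of spleen Phlda3 (without MxCre replicate 2). With both controls, LSK Zmat3 was -0.037. With Ptpn11D61Y/+ as control, LSK Cdkn1a was 0.15, Ccng1 -0.0435 and Zmat3 -0.21, BM Trp53 -0.70 and Ccng1 -0.12, and spleen Trp53 -0.15, Mdm2 0.080, Ccng1 -0.27 and Zmat3 -0.55. With library size only, BM Mdm2 was 0.38 and Trp53inp1 0.12, spleen Trp53inp1 0.047, Mdm2 -0.10 and Ccng1 -0.31 in spleen against LSK, and Mdm2 -0.31 in BM against LSK. With single libraries left out, values of S3 against MxCre in the BM ranged from -0.47 to 0.16 for Mdm2 (0.028 without MxCre replicate 1, 0.16 without S3 815), and, lowest without S3 640, from -0.047 to 0.996 for Cdkn1a, -0.029 to 0.39 for Ccng1, -0.43 to 4.52 for Phlda3 and -0.94 to 1.80 for Zmat3. They ranged from -0.12 to 0.0025 for Trp53inp1 in BM against LSK (highest without LSK S3 815), from -0.023 to 0.27 for Mdm2 in spleen against BM (lowest without spleen MxCre replicate 2) and from -3.49 to 0.018 for Phlda3 in BM Ptpn11D61Y/+ against MxCre (highest without MxCre replicate 1). Without the Xist and Y-linked libraries BM Ccng1 was -0.0495, and without those with the fewest genes BM Mdm2 was 0.28 and BM Phlda3 in Ptpn11D61Y/+ against MxCre 0.017. In MxCre libraries alone, spleen against LSK gave Ccng1 -0.15 and Zmat3 -0.15, and spleen against BM gave Phlda3 -0.51. With the 7 spleen libraries alone, Trp53inp1 in Ptpn11D61Y/+ against MxCre went from 0.015 to -0.028. In Ptpn11D61Y/+ libraries alone, BM against LSK gave Phlda3 -0.93 and spleen against BM Mdm2 -0.41. In S3 libraries alone, Trp53inp1 was 0.10 and 0.57 in spleen and BM against LSK, and Cdkn1a -0.30 in spleen against BM.

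With the replicate block, 1 gene was called for Ptpn11D61Y/+ against MxCre in LSK and 2 in the spleen. There the block joins mice of different genotypes that share only a number, so that no conclusion is drawn from these calls. Between the fractions the block changed the calls of Mdm2 and Zmat3 in BM against LSK and of Sesn2 and Zmat3 in spleen against BM, and no other call of a member. With 2 MxCre libraries a fraction, values of S3 against MxCre rest on few libraries; which of depth, number and spread limited the calls was not tested.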
